A study of Homo sapiens and Mus musculus with 18 samples.

Results

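Interferon-stimulated genes are the antiviral and signalling genes that cells switch on after they sense interferon or foreign nucleic acid. A list of 44 such human genes was followed by name through libraries of 2 pancreatic cancer cell lines that differ in keratin 17 (K17, encoded by KRT17). The list covers effectors, RNA sensors, transcription factors and feedback genes. The rule names genes and uses no expression value, but the list was chosen with earlier results of these data known. Of the 44, 42 had a row among the 34505 gene rows of the human data, and IFIT5 and CXCL10 were not analysed here. The filter on low counts kept 34 in L3.6 and 37 in PANC-1, and it kept BST2, RSAD2, TRIM21 and GBP1 in neither line.

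The study sequenced RNA from 18 cultured cell samples, of which the 12 human ones are used here, 3 in each of 4 groups. L3.6, an adenosquamous pancreatic carcinoma line, was either K17 wild-type or carried a CRISPR-Cas9 knockout of K17. PANC-1, a pancreatic ductal adenocarcinoma line, carried an empty vector or over-expressed K17. The labels name no interferon or other agent given to the cells, and they do not say whether the knockout is 1 clone or a pool, what promoter drives K17, or whether replicates were separate cultures. P-values therefore measure the spread between these libraries, which may be technical. In both lines a positive log2 fold change below means more RNA in the group with more K17.

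In the canonical pathway, type I interferon binds its receptor and activates the kinases JAK1 and TYK2. STAT2 and IRF9 belong to the complex formed downstream, which binds the interferon-stimulated response element (ISRE) in target promoters. Interferon gamma acts mostly through another element, the gamma-activated sequence (GAS). Epithelial tumour cells can also carry a low constant level of these transcripts without added interferon, and several of the products (IFIH1, DDX58, STAT2, IRF9) are themselves parts of the pathway.

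The promoters of 4 genes that carry the PANC-1 result are shown, to place the element beside the genes whose RNA differed. They are those of the genes past the threshold without empty vector replicate 2 that had the highest fold changes and an entry in the RefSeq promoter table (GRCh38.p14). Each runs 5′ to 3′ on the gene's strand, from 250 bases before to 50 bases after the annotated start, with matches to the ISRE core (GAAA, any 2 bases, then GAAA again, on either strand) in capitals.
IFIT3 promoter, chr10:89327747-89328046, plus strand: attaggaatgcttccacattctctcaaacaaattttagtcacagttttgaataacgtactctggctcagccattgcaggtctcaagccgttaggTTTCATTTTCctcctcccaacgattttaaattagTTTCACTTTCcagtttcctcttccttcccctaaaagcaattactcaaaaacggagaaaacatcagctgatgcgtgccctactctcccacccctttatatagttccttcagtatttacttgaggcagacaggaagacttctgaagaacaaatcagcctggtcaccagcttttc
IFIH1 promoter, chr2:162318635-162318934, minus strand: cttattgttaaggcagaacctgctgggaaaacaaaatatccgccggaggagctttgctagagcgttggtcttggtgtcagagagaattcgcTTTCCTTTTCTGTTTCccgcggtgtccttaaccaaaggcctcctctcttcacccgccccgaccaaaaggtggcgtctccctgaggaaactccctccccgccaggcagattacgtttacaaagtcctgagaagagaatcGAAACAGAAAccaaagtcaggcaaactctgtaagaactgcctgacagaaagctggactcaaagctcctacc
OAS1 promoter, chr12:112906712-112907011, plus strand: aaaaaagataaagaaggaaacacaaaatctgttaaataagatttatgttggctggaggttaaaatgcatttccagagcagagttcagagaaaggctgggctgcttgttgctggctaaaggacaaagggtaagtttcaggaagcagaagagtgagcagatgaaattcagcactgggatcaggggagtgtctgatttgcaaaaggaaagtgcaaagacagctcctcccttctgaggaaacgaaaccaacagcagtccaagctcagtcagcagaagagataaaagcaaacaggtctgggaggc
PARP9 promoter, chr3:122564251-122564550, minus strand: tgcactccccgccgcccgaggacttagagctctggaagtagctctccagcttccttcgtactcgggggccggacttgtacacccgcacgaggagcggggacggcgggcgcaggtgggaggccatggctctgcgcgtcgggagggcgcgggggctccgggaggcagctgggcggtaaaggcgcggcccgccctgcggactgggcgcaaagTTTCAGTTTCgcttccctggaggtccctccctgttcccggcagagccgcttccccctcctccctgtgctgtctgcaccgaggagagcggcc
The table gives a second start for IFIT3 and for PARP9, and the window with the most matches is shown. The other IFIT3 window also holds 2 matches, and the other PARP9 window (chr3:122564735-122565034) holds 0. The windows shown for IFIT3, IFIH1 and PARP9 hold the core as written here. The OAS1 window has no match to that pattern but holds GAAACGAAA, with 1 base in place of 2 between the GAAA runs. Such spacing was not counted as a match, so a window without one may still hold a variant of the element. The OAS1 window also has 1 match to the GAS core (TTCNNNGAA, the same on both strands). Of the 35 listed genes with a promoter in the table, 25 (71.4%) held the ISRE core in at least 1 window, against 4.38% of all 27305 genes of the table. The GAS core was in 9 of the 35 (25.7%), against 9.38% of all. Among the 11 genes with a promoter that were higher in PANC-1 K17 without empty vector replicate 2, 6 (54.5%) held the ISRE core and 5 (45.5%) the GAS core. A match describes the letters of the window and does not show that a factor binds there.

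Total counts ranged from 9485257 to 15476629 in L3.6 and from 59671178 to 70789559 in PANC-1, so 3 counts, used as the floor of detection, correspond to 0.191 to 0.325 CPM (counts scaled to the size of the library) in L3.6 and 0.0426 to 0.0502 CPM in PANC-1. KRT17 had 175 to 204 counts in the knockout and 1112 to 1654 in wild-type L3.6 libraries, and 0 to 2 in empty vector and 8597 to 9884 in K17 PANC-1 libraries. PANC-1 empty vector replicate 2 stood apart: 18.8% of its counts came from mitochondrial DNA genes against 9.88% to 10.8% in the other 5 PANC-1 libraries. The scatter of replicate counts was expressed as a chi-square divided by its degrees of freedom, which has a mean of 1 under pure counting error. Its median over the listed genes was 17.4 in the empty vector group. It was 2.98 in PANC-1 K17, 2.80 in L3.6 knockout and 2.87 in L3.6 wild-type libraries. PANC-1 results are given with and without empty vector replicate 2, because it stood apart in an earlier analysis of these data. Leaving it out is thus a choice made with these data known, and the calls without it depend on that choice. TUBB had 0 counts in every PANC-1 library, and CANX had 67 to 21772 counts across the empty vector libraries, so some rows may miss reads of their gene. The 7 epithelial markers summed to 3245 to 4148 CPM in L3.6 and 948 to 1781 CPM in PANC-1, where KRT7 was at 0.706 to 1.48 CPM and CDH1 at 0.114 to 0.92 CPM. Of the 8 leukocyte markers, 2 had 0 counts in all 12 libraries, CD3E among them. The 8 summed to 4.95 to 11.7 CPM in L3.6 and 38.9 to 55.5 CPM in PANC-1. The 3 markers of plasmacytoid dendritic cells, a main source of interferon, summed to at most 1.78 CPM.

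K17 expression in PANC-1 came with more RNA of many interferon-stimulated genes, and the statistical call depended on 1 empty vector library. With all 6 libraries, 19 of the 37 tested genes (51.4%) had every K17 library above every empty vector library and 0 had the reverse, where 14.5% and 11.1% of the 16295 genes tested did so. Of the 37, 31 (83.8%) had a positive fold change, against 51.2% of all genes tested. The median log2 fold change was 0.54, against 0.01 over all genes tested. No gene of the list passed an adjusted p of 0.05 in this comparison (edgeR quasi-likelihood test, 13 with an unadjusted p under 0.05), in which 0.583% of all genes were called higher and 0.0614% lower (0.644% in either direction). DESeq2 called 9 of the list, with 2.75% of all genes higher, and limma-voom 1, with 0.669%. Without empty vector replicate 2, 15 of 37 (40.5%) were called higher and 0 lower, where 11.4% of all 16640 genes were called higher and 9.25% lower (20.7% in either direction). The median over the 37 was again 0.54, against 0.01 over all genes. In these bulk libraries, more cells with a transcript and more transcript per cell cannot be told apart. The summed level of 4 fibroblast markers moved with the group as well, from 22.9 to 41.1 CPM in empty vector to 138 to 144 CPM in K17 libraries, with none of the 4 at 0 in all libraries. Almost all of it came from COL1A1, at 22.0, 40.3 and 22.2 CPM in empty vector and 141, 142 and 136 CPM in K17 libraries, and its part in the result was not tested. The summed leukocyte markers overlapped, at 39.0 to 55.5 CPM in empty vector and 38.9 to 46.0 CPM in K17 libraries. Of the 7 epithelial markers, none was called with 6 libraries, where 3 had a positive fold change. Without replicate 2 all 7 were positive and KRT8 and MUC1 (28.6%) were called higher, and their part in the result was not tested.

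**Figure D1:**
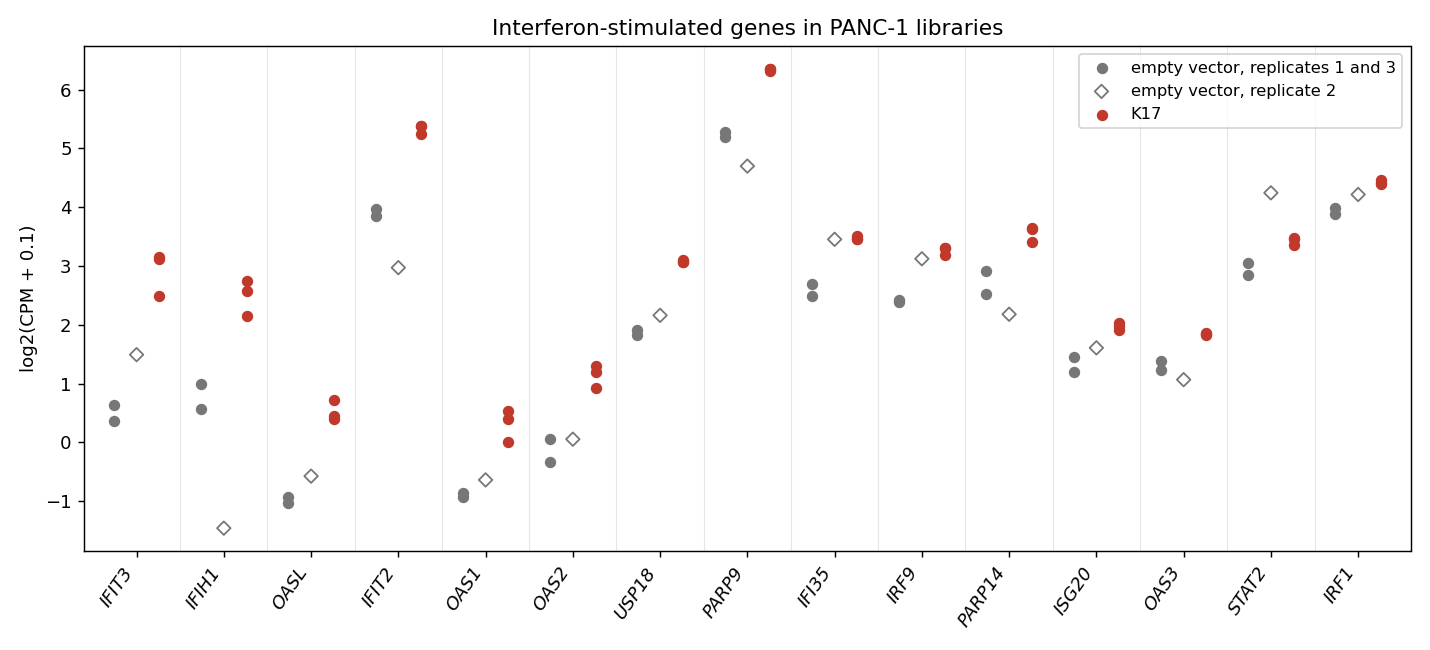
Level of the 15 genes called higher in PANC-1 K17 without empty vector replicate 2, as log2(CPM + 0.1) on the vertical axis, 1 point a library. Grey circles are empty vector replicates 1 and 3, the open diamond is empty vector replicate 2 and red circles are K17. The diamond lies under the K17 libraries for every gene shown except STAT2, where it is above them.

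The IFIT genes encode proteins that bind foreign RNA ends or assemble on one another to block its translation, and they sit side by side at chr10:89283694-89406486 (GRCh38). IFIT3 read 1.19, 2.72 and 1.46 CPM in empty vector replicates 1 to 3 and 5.50, 8.75 and 8.59 CPM in K17 replicates 1 to 3. The groups did not overlap, and replicate 2 was the highest of the empty vector libraries. The log2 fold change of IFIT3 was 2.09 (SE 0.381, adjusted p = 0.0952) with 6 libraries and 2.52 (SE 0.256, adjusted p = 0.000985), a 5.74-fold difference, without replicate 2. IFIT2 read 15.6, 7.75 and 14.3 CPM in empty vector and 37.9, 41.4 and 41.4 CPM in K17 libraries. Here replicate 2 was the lowest, and the K17 libraries were all more than 2-fold above every empty vector library. The log2 fold change of IFIT2 was 1.68 (adjusted p = 0.0737) with 6 libraries and 1.42 (SE 0.0735, adjusted p = 4.53e-05) without replicate 2. IFIT1 had 0.980, 0.352 and 2.52 CPM in empty vector and 3.49, 3.40 and 2.99 CPM in K17 libraries, groups that did not overlap but did not pass the test (adjusted p = 0.161 without replicate 2). The exons of IFIT2 overlap those of LIPA on the opposite strand, and the strand setting of the counts is not given in the sources used here.

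Among the sensors of cytosolic double-stranded RNA, IFIH1 (MDA5, at chr2:162267079-162318703) rose in the comparison without replicate 2. Its level was 1.89, 0.264 and 1.38 CPM in empty vector and 5.87, 4.32 and 6.62 CPM in K17 libraries, with replicate 2 the lowest at 18 counts. Its log2 fold change was 1.77 (SE 0.239, adjusted p = 0.00276), a 3.41-fold difference, and 2.25 (adjusted p = 0.301) with all 6 libraries. DDX58 (RIG-I) also had groups that did not overlap, at 13.7, 8.82 and 17.4 CPM against 18.2, 20.1 and 21.8 CPM, and did not pass (log2 fold change 0.36, adjusted p = 0.086 without replicate 2). For DHX58 (LGP2), a regulator of the other two sensors, the groups overlapped between 0.831 and 1.57 CPM.

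All 4 tested members of the oligoadenylate synthetase family were called higher without replicate 2. OAS1, OAS2 and OAS3 make the messenger that activates RNase L and lie together at chr12:112906777-113011723, and OASL, an enzymatically inactive relative that promotes RNA sensing, lies at chr12:121019111-121039242. OAS1 read 0.454, 0.543 and 0.423 CPM in empty vector and 1.22, 0.904 and 1.36 CPM in K17 libraries, from 27 to 84 counts a library. OAS2 read 0.937, 0.939 and 0.690 CPM against 2.35, 1.81 and 2.20 CPM. OASL read 0.426, 0.572 and 0.392 CPM against 1.54, 1.27 and 1.21 CPM. In all 3 genes every K17 library lay above every empty vector library, replicate 2 included. The log2 fold changes without replicate 2 were 1.39 for OAS1 (SE 0.266, adjusted p = 0.011), 1.37 for OAS2 (SE 0.225, adjusted p = 0.00591) and 1.70 for OASL (SE 0.232, adjusted p = 0.00271), and with 6 libraries 1.29, 1.31 and 1.53. OAS3 had a smaller difference of 0.54 (adjusted p = 0.0286), and its call was lost whenever any 1 further library was left out (0.46 to 0.61, adjusted p from 0.0621 to 0.152). These are low-abundance transcripts in PANC-1, and OAS1 lost its call when either remaining empty vector library was also left out, with fold changes of 1.45 and 1.33.

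Of ISG15 and its enzymes, USP18 was the 1 gene past the threshold. USP18 removes ISG15 from proteins and also blocks signalling at the type I receptor. It read 3.47, 4.37 and 3.67 CPM in empty vector and 8.29, 8.27 and 8.48 CPM in K17 libraries, and the 2 groups were far apart with little scatter in either. The log2 fold change of USP18 was 1.22 (SE 0.102, adjusted p = 0.000343), a 2.33-fold difference, without replicate 2 and 1.12 (adjusted p = 0.0511) with it. ISG15 itself, the ubiquitin-like modifier, was close to the floor in most PANC-1 libraries, at 0.142, 1.35 and 0.157 CPM in empty vector and 0.243, 0.00 and 0.162 CPM in K17 libraries. Its highest value was in replicate 2, and its fold change moved from -2.01 with that library to -0.14 without it. The ISG15 ligase HERC5 ranged from 4.77 to 5.41 CPM in empty vector and from 4.61 to 6.14 CPM in K17 libraries. HERC6, its relative, had groups that did not overlap, at 0.483, 0.631 and 0.784 CPM against 0.811, 1.09 and 0.856 CPM, with no call.

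The ADP-ribosylation genes PARP9, DTX3L and PARP14 lie at chr3:122527924-122730840. PARP9 works with the ubiquitin ligase DTX3L, and both enhance interferon signalling, while PARP14 is a mono-ADP-ribosyltransferase. PARP9 read 36.5, 25.9 and 39.0 CPM in empty vector and 81.3, 81.6 and 80.0 CPM in K17 libraries. The K17 libraries were within a narrow band (81.0 ± 0.85 CPM, SD, n = 3) and more than 2-fold above each empty vector library. Its log2 fold change was 1.10 (SE 0.0409) without replicate 2, with the lowest adjusted p of the list (1.33e-05), and 1.26 (adjusted p = 0.0543) with it. PARP14 read 7.48, 4.43 and 5.63 CPM against 10.6, 12.5 and 12.3 CPM, a log2 fold change of 0.84 (SE 0.15, adjusted p = 0.00839) without replicate 2. DTX3L was at 0.00 to 0.383 CPM in empty vector and 0.406 to 1.10 CPM in K17 libraries and did not pass (adjusted p = 0.211). Exons of PARP9 and DTX3L overlap on opposite strands.

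Of the transcription factors, IRF9, STAT2 and IRF1 were called higher without replicate 2. IRF9, the DNA-binding part of the STAT complex, read 5.25, 8.62 and 5.14 CPM in empty vector and 8.99, 9.76 and 9.86 CPM in K17 libraries, a log2 fold change of 0.87 (SE 0.0994, adjusted p = 0.00124) without replicate 2 and 0.59 (adjusted p = 0.502) with it. Replicate 2 was just under the K17 libraries. STAT2 read 7.10, 18.9 and 8.17 CPM in empty vector and 11.0, 10.2 and 11.0 CPM in K17 libraries. Replicate 2 was the highest STAT2 value of the line, and the log2 fold change turned from 0.48 (adjusted p = 0.0157) without it to -0.09 (adjusted p = 0.944) with it. Its call was also lost without empty vector replicate 1 (0.39) or K17 replicate 3 (0.47). IRF1, an interferon-gamma-responsive activator, read 14.7, 18.5 and 15.8 CPM against 21.3, 20.9 and 22.0 CPM, a log2 fold change of 0.48 (SE 0.068, adjusted p = 0.00307). IRF7, which amplifies interferon alpha genes, was under 0.25 CPM in the PANC-1 libraries apart from 0.617 CPM in replicate 2.

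IFI35 and ISG20 were the other genes of the 15. IFI35, a partner of NMI, read 6.35, 10.9 and 5.54 CPM in empty vector and 10.9, 11.3 and 10.9 CPM in K17 libraries. Replicate 2 came within rounding of the lowest K17 library, and the log2 fold change was 0.89 (SE 0.102, adjusted p = 0.00125) without it and 0.54 (adjusted p = 0.596) with it. ISG20, an RNA exonuclease, read 2.63, 2.95 and 2.20 CPM against 3.65, 3.87 and 4.01 CPM, a log2 fold change of 0.67 (SE 0.145, adjusted p = 0.0187) without replicate 2, a call lost when empty vector replicate 3 (0.53) or K17 replicate 2 (0.66) or 3 (0.64) was also left out. Over the 15 genes, replicate 2 lay below the other 2 empty vector libraries in 5, above them but below the K17 libraries in 9, and above the lowest K17 library in 1, which was STAT2. Its departures from its group thus went both ways.

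The MX GTPases, the guanylate binding proteins, the membrane restriction factors, the kinase and deaminase acting on double-stranded RNA, and the SAMD9 pair had no call in PANC-1 with or without replicate 2. GBP2, a GTPase that attacks membranes of intracellular pathogens, read 0.227, 0.602 and 0.439 CPM in empty vector and 1.35, 0.653 and 0.808 CPM in K17 libraries, groups that did not overlap (adjusted p = 0.053 without replicate 2). IFITM2, which blocks viral fusion in endosomes, read 5.30, 10.9 and 5.93 CPM against 6.67, 5.36 and 5.67 CPM. EIF2AK2 (PKR), which halts translation on double-stranded RNA, read 46.6, 43.7 and 52.1 CPM against 47.7, 52.8 and 53.0 CPM, with overlapping groups and a fold change near 0 (0.05, SE 0.0676). SAMD9, a restriction factor of poxviruses, had 0.525, 4.89 and 0.00 CPM in empty vector and 1.49, 2.78 and 2.57 CPM in K17 libraries, and replicate 2 alone exceeded the K17 group. Its log2 fold change was 0.34 with 6 libraries and 3.06 without replicate 2. The latter was the highest of the 37 tested genes, but it was not called. MX2 was abundant in PANC-1 and level between the groups, at 59.1, 37.2 and 57.5 CPM against 57.4, 56.5 and 59.8 CPM (log2 fold change -0.01, SE 0.0424 without replicate 2). Differences between the PANC-1 groups were thus called in some abundant genes of the list and not in others.

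In L3.6, where wild-type cells were compared with K17 knockout cells, 1 of the 34 tested genes was called higher in wild type and 0 lower, a share of 2.94% where 3.51% of all 13891 genes were called higher and 6.1% lower (9.61% in either direction). Of the 34, 22 had a positive (64.7%, against 50.7% of all genes) and 12 a negative fold change, and 4 had an unadjusted p under 0.05. The median log2 fold change was 0.14, against 0.01 over all genes. The groups did not overlap in 5 genes that were higher in wild type (14.7%), XAF1, IFI44L, PARP9, ADAR and MX2, and in 2 that were lower (5.88%), HERC6 and IFITM2. Over all genes 15.3% were higher and 17.9% lower in this way. The summed endothelial markers also moved with the group, from 3.48 to 3.88 CPM in knockout to 8.78 to 12.2 CPM in wild type, mostly through PECAM1. The fibroblast markers summed to 101 to 112 CPM in knockout and 130 to 159 CPM in wild type, with COL1A1 called higher. The epithelial markers summed to 3840 to 4148 CPM and 3245 to 3637 CPM. Of these, KRT7 and KRT19 were called lower and MUC1 higher (log2 fold change 1.15). The summed leukocyte markers were 4.95 to 9.28 CPM and 9.04 to 11.7 CPM. Their part in the result was not tested.

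MX2, a GTPase that restricts the nuclear entry of retroviral genomes (chr21:41361943-41409390), was the gene called in L3.6. It read 4.87, 3.597 and 5.57 CPM in knockout and 7.39, 8.78 and 10.3 CPM in wild-type replicates 1 to 3. Every wild-type library was above every knockout library, and the log2 fold change was 0.91 (SE 0.232, adjusted p = 0.0451), a 1.88-fold difference. The call was close to the threshold and was kept under 7 of 15 alternatives, with adjusted p from 0.0189 to 0.145. It was lost when any 1 of the 3 knockout libraries, or wild-type replicate 2 or 3, was left out, with fold changes of 0.75 to 1.07. XAF1, which antagonises the apoptosis inhibitor XIAP, read 9.51, 7.27 and 8.05 CPM in knockout and 10.4, 18.9 and 18.3 CPM in wild type, and narrowly missed the threshold (log2 fold change 0.93, SE 0.244, adjusted p = 0.0508). Wild-type replicate 1 was well below the other 2 wild-type libraries for this gene.

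None of the genes of the PANC-1 result passed the test in L3.6, where IFIT3 was too low to be tested. PARP9 read 86.5, 92.7 and 93.3 CPM in knockout and 98.4, 95.4 and 99.9 CPM in wild type, which did not overlap but differed by 1.08-fold (adjusted p = 0.245). IFIT2 read 19.8, 18.8 and 18.3 CPM against 16.2, 17.3 and 19.5 CPM (log2 fold change -0.10, SE 0.12, adjusted p = 0.614). USP18 read 17.2, 19.0 and 19.1 CPM against 21.8, 19.0 and 17.2 CPM, with groups that overlapped. IFIT3 had 0 counts in 5 of the 6 L3.6 libraries and 0.976 CPM in wild-type replicate 2, so a difference was not detectable at this depth. The 4 oligoadenylate synthetase genes had positive fold changes of 0.33 to 0.80, none of which passed. OAS1 read 1.55, 2.66 and 1.55 CPM in knockout and 4.08, 2.60 and 3.30 CPM in wild type (log2 fold change 0.80, SE 0.333, adjusted p = 0.166), and its groups overlapped through 1 library of each.

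**Figure D2:**
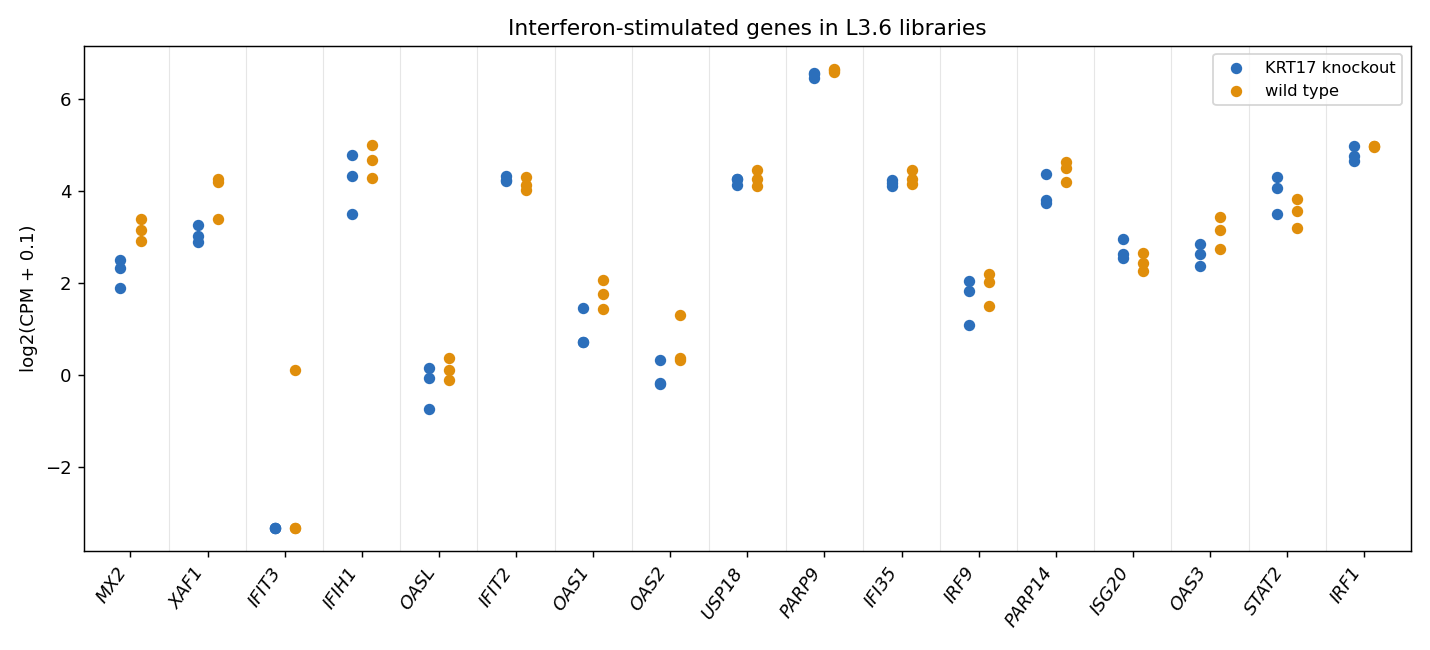
Level in L3.6 of MX2, XAF1 and the 15 genes of the PANC-1 result, as log2(CPM + 0.1) on the vertical axis, 1 point a library, knockout in blue and wild type in orange. Only MX2 and XAF1 and, by a small margin, PARP9 have groups that do not overlap, and IFIT3 lies at the bottom of the scale because it had 0 counts in 5 of 6 libraries.

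The leading genes of the role groups with no call in either line had these values in L3.6. GBP2, with 8 to 19 counts a library, read 0.927, 0.575 and 0.619 CPM in knockout and 0.764, 1.73 and 1.61 CPM in wild type. IFITM2 read 38.6, 43.4 and 39.4 CPM against 37.7, 32.2 and 37.5 CPM, and every wild-type library was lower (log2 fold change -0.17, SE 0.0943, adjusted p = 0.265). EIF2AK2 read 71.8, 64.9 and 70.7 CPM against 65.4, 79.7 and 65.2 CPM. SAMD9 read 15.5, 12.7 and 15.7 CPM against 11.3, 18.8 and 7.27 CPM, with overlapping groups. The fold changes of all tested genes ranged from -1.03 (IFITM3) to 0.93 (XAF1).

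**Figure D3:**
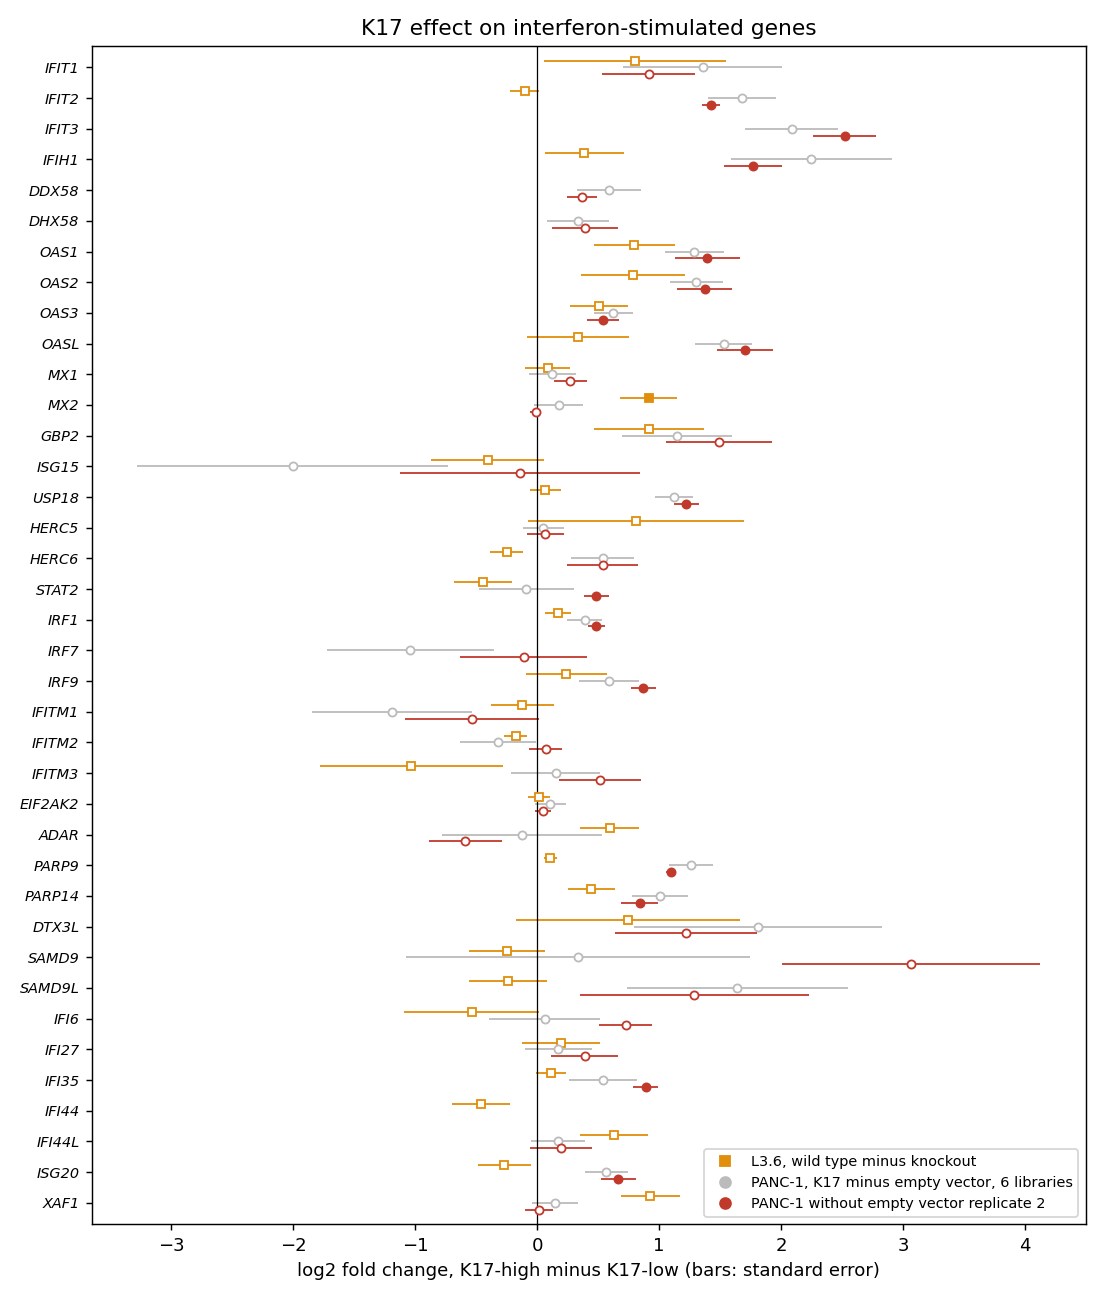
Log2 fold change of each tested gene, group with more K17 minus group with less, with its standard error as a bar. Orange squares are L3.6, grey circles PANC-1 with 6 libraries and red circles PANC-1 without empty vector replicate 2, and a filled symbol marks an adjusted p under 0.05. No grey symbol is filled, 15 red ones are, and of the orange ones MX2 alone is.

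Whether the K17 effect differed between the lines was tested as an interaction over all 12 libraries, L3.6 effect minus PANC-1 effect. Of the 40 genes of the list that were tested, 2 were called, both in the direction of a larger effect in PANC-1, where 1.25% of all 17583 genes were called in that direction and 0.284% in the other. The difference was -1.76 for IFIT2 (SE 0.283, adjusted p = 0.0103) and -1.13 for PARP9 (SE 0.17, adjusted p = 0.00705). Without empty vector replicate 2, 5 of 39 were called in that direction, where 8.72% of all 15758 genes were, and 1 in the other, where 2.82% were. The 5 were IFIT2, PARP9, IFI35, ISG20 and USP18, and the 1 with the larger effect in L3.6 was MX2 (0.85, SE 0.186, adjusted p = 0.0131). For the other genes of the 15 (IFIT3, IFIH1, OAS1, OAS2, OAS3, OASL, PARP14, IRF9, STAT2 and IRF1) the difference did not pass in either fit. Their calls in PANC-1 are therefore not shown to be different from L3.6.

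**Figure D4:**
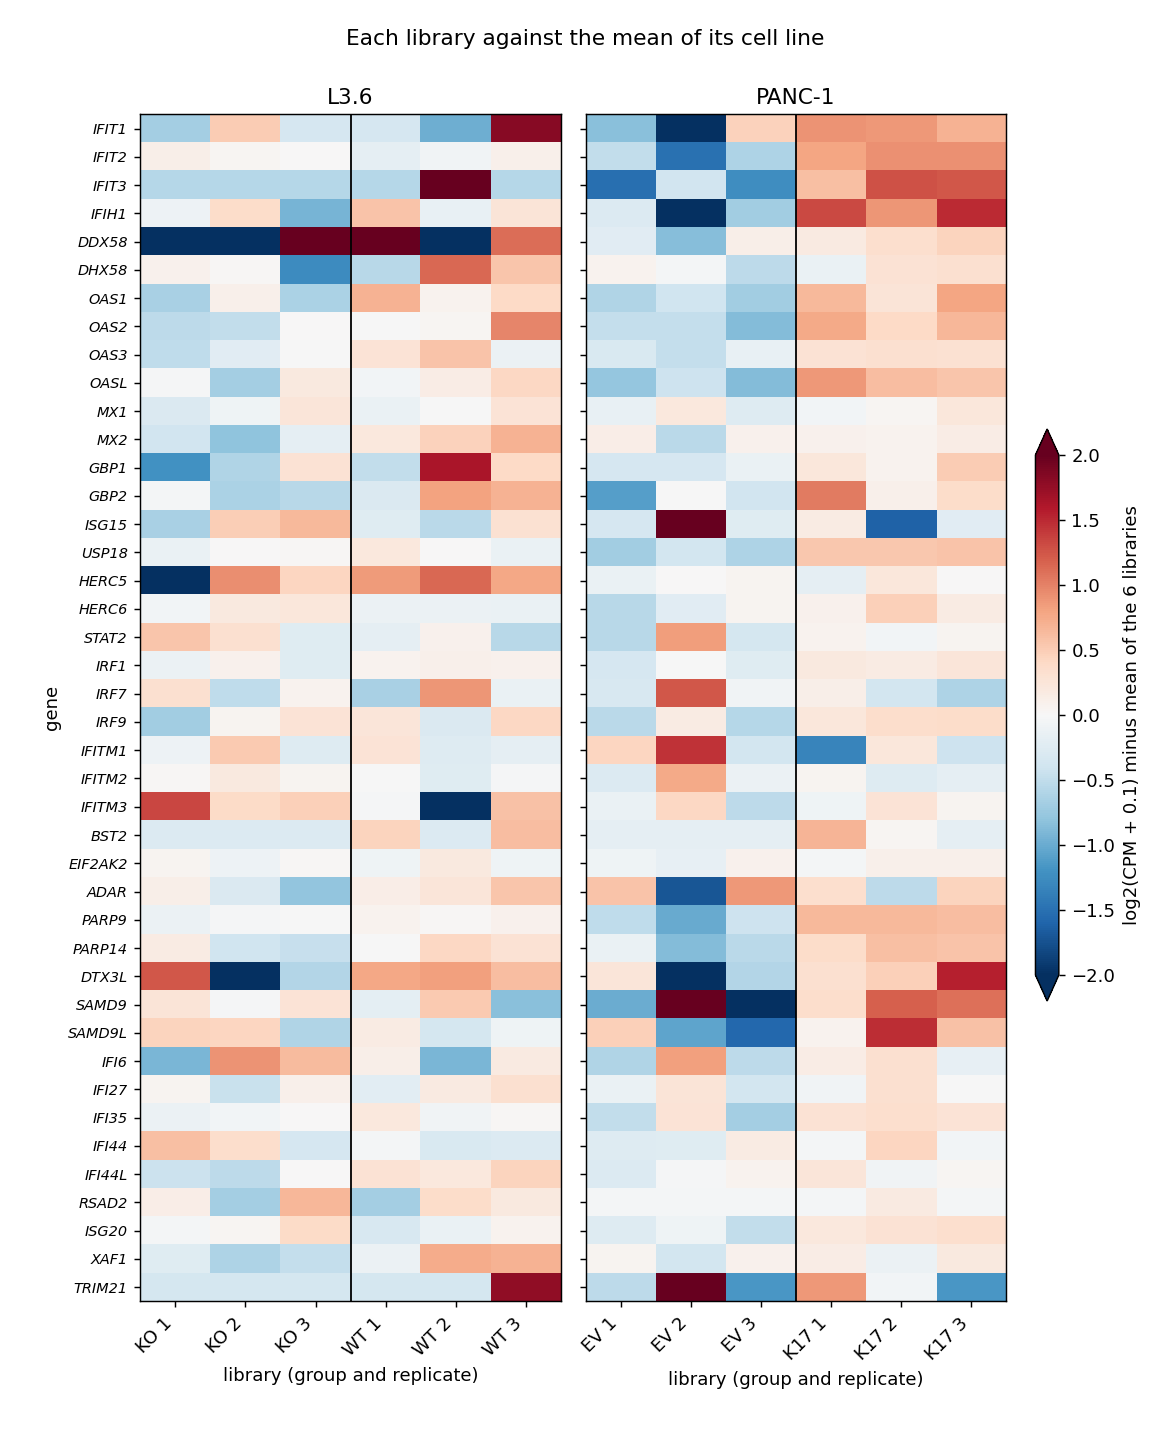
Each library's log2(CPM + 0.1) minus the mean of the 6 libraries of its line, for all 42 genes with a row, genes down and libraries across, red above and blue below the mean and colours limited at 2. The PANC-1 K17 libraries are redder than the empty vector libraries at IFIT2, IFIT3, IFIH1, OAS1, OAS2, OASL, USP18, PARP9 and PARP14. The column of empty vector replicate 2 reaches the blue limit at genes that include IFIH1 and IFIT1, and the red limit at genes that include ISG15.

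Levels of the list also differed between the lines, as a description, since each line was scaled alone and rows may miss different reads in each line. For 20 genes every L3.6 library was above every PANC-1 library, for 6 the reverse held, and for 16 the ranges overlapped. The same counts were not made over all genes, so they do not set the list apart from other genes. IFI44, an induced cytoplasmic protein, had 9.21 to 17.7 CPM in L3.6 and 0.0568 to 0.151 CPM in PANC-1. HERC6 had 12.3 to 15.8 CPM in L3.6 and 0.483 to 1.09 CPM in PANC-1. The genes higher in PANC-1 were IFIT3, DDX58, DHX58, MX2, HERC5 and IRF9. DDX58 had 8.82 to 21.8 CPM in PANC-1 but 0.00 to 2.25 CPM in L3.6, where 3 libraries had 0 counts. Per kilobase of annotated exon, the highest mean levels in L3.6 knockout libraries were those of IFITM2 (26.2 CPM per kb), PARP9 (10.2) and IFI35 (9.09), and in wild type those of IFITM2 (23.2), PARP9 (10.95) and IFI35 (9.83). In PANC-1 empty vector libraries they were those of IFITM2 (4.77 CPM per kb), EIF2AK2 (4.42) and MX2 (3.93), and in K17 libraries those of IFIT2 (9.81), PARP9 (9.06) and IFI35 (5.598). Of the 4 untested genes, BST2 reached 0.0846 CPM and RSAD2, the antiviral enzyme viperin, 0.155 CPM in their highest library. GBP1 reached 1.73 CPM, from 16 counts in L3.6 wild-type replicate 2, and TRIM21 0.822 CPM, from 56 counts in PANC-1 empty vector replicate 2.

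A second list gave the rest of the pathway: 75 genes for ligands, receptors, kinases and STATs, upstream sensing, brakes and further induced genes, of which 67 had a row. In PANC-1, 0 of 56 tested passed with 6 libraries (11 with an unadjusted p under 0.05, median log2 fold change 0.25), and without replicate 2, 16 of 58 (27.6%) were higher and 2 lower, against the 11.4% and 9.25% over all genes. Of the 16, 12 were further induced genes. LGALS3BP, a secreted galectin ligand, read 1.99, 6.36 and 2.68 CPM in empty vector and 6.55, 5.41 and 6.04 CPM in K17 libraries (log2 fold change 1.36, adjusted p = 0.00186), with replicate 2 inside the K17 range. APOL1, a trypanolytic apolipoprotein, had a fold change of 1.08, and HELZ2, a helicase coactivator, one of 0.83. NMI, the partner of IFI35, read 53.6, 63.2 and 49.4 CPM against 93.7, 91.6 and 90.5 CPM (0.83, SE 0.0466, adjusted p = 6.63e-05). SP100, a nuclear body protein, read 58.8, 67.3 and 57.4 CPM against 101, 101 and 99.5 CPM (0.78, SE 0.0332, adjusted p = 2.06e-05). Both had groups that did not overlap with all 6 libraries. DDX60L, a helicase, had a fold change of 0.77. The 2 that fell, the SUMO ligase PIAS1 and the mitochondrial exoribonuclease PNPT1, fell by 0.22 and 0.24 on the log2 scale.

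Of the pathway genes other than the further induced ones, 4 of 27 (14.8%) were called higher without replicate 2 and 18.5% in either direction, shares near the 11.4% and 20.7% over all genes. By role, 0 of 4 tested receptor genes passed (edgeR, 1 with an unadjusted p under 0.05). STAT3 (0.25) was the 1 called of 5 kinases and STATs. Of the sensing genes TRIM25 and TICAM1 were called higher, and of the brakes SOCS3 (0.35). Among the ligands, IFNE, an epithelial type I interferon, and IFNA1 passed the filter, and neither was called. IFNB1, IFNL1, IFNG and the receptor gene IFNAR1 were not analysed here.

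In L3.6, 4 of 52 tested pathway genes were higher in wild type (7.69%) and 5 lower, against 3.51% and 6.1% over all genes. Those higher were TRIM25 (0.73), a ubiquitin ligase that activates RIG-I, RNF213 (0.43), NMI (0.32) and IFNGR1 (0.31), a chain of the interferon gamma receptor. Those lower included CMPK2 (-1.30), a mitochondrial nucleotide kinase, SP100 (-0.38), IFI16 (-0.33), a DNA sensor, and PML (-0.27). CMPK2 read 3.79, 3.96 and 4.72 CPM in knockout and 1.72, 1.52 and 1.78 CPM in wild type, with adjusted p = 0.0173. SP100 thus fell in L3.6 with more K17 and rose in PANC-1 without replicate 2, and the interaction over 12 libraries called that difference (-1.06, SE 0.177, adjusted p = 0.0135).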

How the data were processed

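Per the labels' protocols, TRIzol was used for total RNA and a TruSeq kit for the libraries. The authors deposited whole-number counts per gene for each sample, not normalized. The build GRCh38 and the tools kallisto 0.46.2, STAR 2.7.3a and bcl2fastq 1.8.4 are listed in the submitters' processing notes. The counting tool, annotation, strand setting and handling of shared reads were not given in the sources used here, so overlapping genes and close copies (IFITM1 and IFITM2, for example) are uncertain.

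GENCODE 29 named 34474 of 34505 rows and gave coordinates. Each line was fitted alone on counts of all genes with edgeR 4.0.16 (TMM factors, filterByExpr, robust glmQLFit, glmQLFTest) in R 4.3.3, and calls needed an adjusted p under 0.05 (Benjamini-Hochberg, all kept genes). SE is the fold change divided by the root of the F statistic. CPM use TMM-scaled library sizes of the 6 libraries of a line. The interaction was fitted over 12 libraries. The code was tested on simulated data. Alternatives used DESeq2 1.42.0, limma 3.58.1, other scalings and filters, a replicate block and fits without each library. The listed genes, the second list and the markers were chosen with earlier results of these data known, so no test over a list was made. Values in every library are given for called genes (up to 12 a comparison, by fold change) and for the most abundant gene of each role group with no call. Other genes named were chosen after their values were seen. Values of some genes of the second list and the markers are not reported here. The 6 mouse libraries were not used here.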

Additional observations from a re-analysis of the deposited data

Results flagged for a closer look

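The K17 effect differed between L3.6 and PANC-1 by the edgeR interaction test (L3.6 effect minus PANC-1 effect, log2) in the following genes. Over all 12 libraries the difference was -1.76 for IFIT2 and -1.13 for PARP9, and in the second pathway list -1.06 for SP100, -0.65 for TRIM5, -3.85 for CMPK2 and -1.40 for IFI16. Without PANC-1 empty vector replicate 2 it was -1.60 for IFIT2, -1.07 for PARP9, -0.84 for IFI35, -1.02 for ISG20, -1.23 for USP18 and 0.85 for MX2.

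IFIT2, PARP9, SP100, TRIM5, CMPK2 and IFI16 were called in both fits, with differences of -1.25 for SP100, -0.66 for TRIM5, -3.58 for CMPK2 and -1.39 for IFI16 without that library. CMPK2 and IFI16 had few reads in PANC-1: CMPK2 had 1 to 11 counts in empty vector and 22 to 31 in K17 libraries, and IFI16 18 to 26 and 38 to 44. IFI16 was at 124 to 174 CPM in L3.6. CMPK2 exons overlap those of RSAD2 on the opposite strand.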

How the results depend on the processing

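In L3.6, where 1 gene was called, the count was 2 with RLE factors (3.43% of all genes higher), upper-quartile factors (4.6%) and no filter (1.7%). It was also 2 with DESeq2 (4.72%) and quality weights (6.63%), and 0 with limma-voom (3.11%). With 1 fit of the 4 groups (0.358%) and the replicate block (1.45%) it was 0. When 1 library was left out it was 0 to 2, with 1.34% to 6.61% of all genes called higher. The median there was 0.19 with upper-quartile factors and 0.067 to 0.17 when 1 library was left out. In PANC-1 with 6 libraries, where 0 were called, the count was 2 with a filter of 1 CPM in 3 libraries (1.08% of all genes higher). It was 9 with DESeq2 (2.75%), 1 with limma-voom (0.669%) and 4 with 1 fit of the 4 groups (1.63%). With quality weights it was 18 (11.5%, with 3040 genes called in all against 105). When 1 library was left out it was 15 without empty vector replicate 2, where 11.4% of all genes were called higher. Leaving out each other library gave 0, in fits that called at most 1 gene of all those tested. The median was 0.36 to 0.57 when 1 library was left out, lowest without empty vector replicate 3. Without empty vector replicate 2 the count was 11 with 1 fit of the 4 groups (5.4% of all genes higher) and with the replicate block (7.19%). It was 15 with the filter of 1 CPM (16.4%) and 17 with DESeq2 (12%). The other alternatives that kept 2 empty vector libraries lay between 11 and 17. The interaction, with 2 genes called where 270 were called over all genes, gave 0 with the replicate block, which called 74 in all. When 1 library was left out it gave 2 to 6, the 6 being without empty vector replicate 2, where 1819 were called in all. Leaving out any other library called 138 to 287 genes in all. The cause was not tested.

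Replicate numbers are shared between groups, but the labels give them no meaning, and deviations of same-numbered libraries correlated at -0.116, -0.038 and 0.024 in L3.6 and 0.053, 0.086 and 0.022 in PANC-1. The replicate block gave 0 calls in the list in PANC-1 with 6 libraries, where it called 0 of all 16903 genes. Without replicate 2 it gave 11, where 7.19% of all genes were called higher. Among the 15 genes called without replicate 2, the calls of IFIT2, PARP9, IFIH1, OASL, OAS2, USP18, IRF1 and IFI35 held in 13 of 13 alternatives, those of OAS3 in 6, ISG20 in 8 and STAT2 in 9 of 13. Where 1 empty vector library is left, it is assumed to vary like the other group.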

Other observations

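PANC-1 empty vector replicate 2 held the extreme value of its group in genes outside the calls. IRF7 had 0.617 CPM there against 0.142 and 0.188 CPM in the other empty vector libraries, and ISG15 1.35 CPM against 0.142 and 0.157 CPM. ADAR, which edits double-stranded RNA, had 2.07 CPM there against 10.5 and 12.9 CPM.

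In the second pathway list, without that library, the interaction called 14 of 52 genes with the larger effect in PANC-1 and 0 with the larger effect in L3.6, where 8.72% and 2.82% of all genes were called. They included LGALS3BP (-1.33), APOL1 (-0.83), HELZ2 (-0.70), DDX60L (-0.65), PML (-0.61), NMI (-0.59) and SOCS3 (-0.57).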
